A study of Mus musculus with 6 samples.

Results

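The 9 genes described here are made by B cells and plasma cells: the antibody chain genes Igk, Iglv1 and Ighm, the J chain gene Jchain, the cofactor genes Mzb1 and Pou2af1, and the B cell receptor and surface genes Cd79a, Cd79b and Ms4a1. They were chosen by measured values, namely their higher signal in these same knockout arrays, so their knockout minus wild-type differences are given as a description and carry no test. They were found through the platform annotation, which assigned 25 of 34945 single-gene probe sets to them, and they are 9 of 18193 genes measured. Where a gene had several probe sets, the one with the highest average across the 6 arrays stood for it.

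Expression was measured in 3 samples of cystic kidney epithelium from mice labelled Fh1 knockout and in 3 samples of kidney epithelium from wild-type littermates, each on 1 Affymetrix array. The controls were sex-matched and free of disease, per the series design. Fh1 encodes fumarate hydratase of the tricarboxylic acid cycle. The sources used here do not give strain, age, how Fh1 was deleted or whether each sample came from its own animal. The p-values therefore reflect only how these samples varied, which may be technical. The tissue was dissected by hand and not sorted, so in these bulk samples more cells of a type and more RNA per cell cannot be told apart.

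Values are log2 expression values, made by the authors with RMA (robust multi-array average), so differences are on the log2 scale and a fold is also given where it helps. Fh1 read 11.54, 11.60 and 11.61 in knockout samples, against 12.41, 12.34 and 12.22 in wild-type samples. Its log2 difference was -0.74 with SE 0.08 (limma adjusted p = 0.000396). Epithelial markers were measured in both groups. The mean of 10 proximal tubule genes was 10.76 to 11.03 in knockout and 12.43 to 12.60 in wild-type arrays, and limma called 8 of the 10 lower in knockout. Over all genes, 21.6% were called higher and 27.7% lower in knockout at an adjusted p under 0.05 by limma, 49.2% in all, around a median log2 difference of -0.11. Of these calls 56.2% were lower, a share that became 67.0% after centring arrays on their median gene.

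A B cell carries its antibody on the membrane, where the proteins of Cd79a and Cd79b pass on the signal when antigen binds. A plasma cell is the end stage of that lineage, which gives up much of the B cell surface and secretes antibody made of paired heavy and light chains. IgM is the antibody class made first, and the J chain joins IgM or IgA units so that the polymeric immunoglobulin receptor of epithelia can carry them across.

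The light chain genes had the widest differences of the set. Igk, the kappa light chain locus, read 12.36, 12.37 and 11.62 in knockout samples, against 8.38, 5.99 and 6.40 in wild-type samples. The groups did not overlap, and wild-type 1 stood 2.19 above the mean of the other wild-type arrays. The log2 difference was 5.19 with SE 0.57, a 36.5-fold higher level in knockout. Iglv1, a variable segment of the lambda light chain, read 11.63, 11.62 and 11.04 in knockout samples, against 8.06, 6.02 and 6.24 in wild-type samples. Wild-type 1 was again the high control, and the log2 difference was 4.66 with SE 0.49. Ighm, the constant region of the IgM heavy chain, read 14.67, 14.66 and 14.48 in knockout samples, against 12.08, 10.33 and 10.65 in wild-type samples. Its knockout values lay near 14.8, the highest value in the table, and its log2 difference was 3.58 with SE 0.40. Jchain read 13.46, 13.43 and 13.10 in knockout samples, against 11.28, 9.25 and 9.89 in wild-type samples. That is a log2 difference of 3.19 with SE 0.45, or 9.12-fold, and wild-type 1 was the nearest control to the knockout range.

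The cofactor genes had narrower control values than the antibody genes at the probe sets used. Pou2af1, the coactivator that binds octamer factors at immunoglobulin promoters, read 8.58, 8.27 and 7.71 in knockout samples, against 4.73, 4.26 and 4.44 in wild-type samples. The lowest knockout value stood 2.98 above the highest control, and the log2 difference was 3.71 with SE 0.22. In 2 of the 3 wild-type arrays the value lay below the array's lower quartile (4.62 to 4.77 over the arrays), where RMA compresses differences, so the 13.1-fold size is uncertain. Mzb1, an endoplasmic reticulum cochaperone of antibody assembly, read 9.67, 9.58 and 8.77 in knockout samples, against 7.52, 7.13 and 7.30 in wild-type samples. Its log2 difference was 2.02 with SE 0.23, or 4.06-fold, and knockout 3 was the low knockout array.

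The B cell surface genes had the narrowest differences. Ms4a1, which encodes CD20 of B cells and is lost in plasma cells, read 7.73, 7.18 and 6.45 in knockout samples, against 5.38, 5.51 and 5.02 in wild-type samples. The knockout values spread over 1.28, the widest knockout range of the 9 genes, and the log2 difference was 1.81 with SE 0.30. Cd79b read 7.76, 7.92 and 7.20 in knockout samples, against 6.26, 5.90 and 5.94 in wild-type samples. That is a log2 difference of 1.60 with SE 0.19, or 3.03-fold. Cd79a read 6.90, 6.59 and 6.25 in knockout samples, against 5.74, 5.34 and 5.91 in wild-type samples. The lowest knockout value stood only 0.34 above the highest control, and the log2 difference was 0.91 with SE 0.20, or 1.88-fold. All 3 wild-type values of Cd79a and Ms4a1 lay below their arrays' medians, so these dim genes may be compressed.

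**Figure D1:**
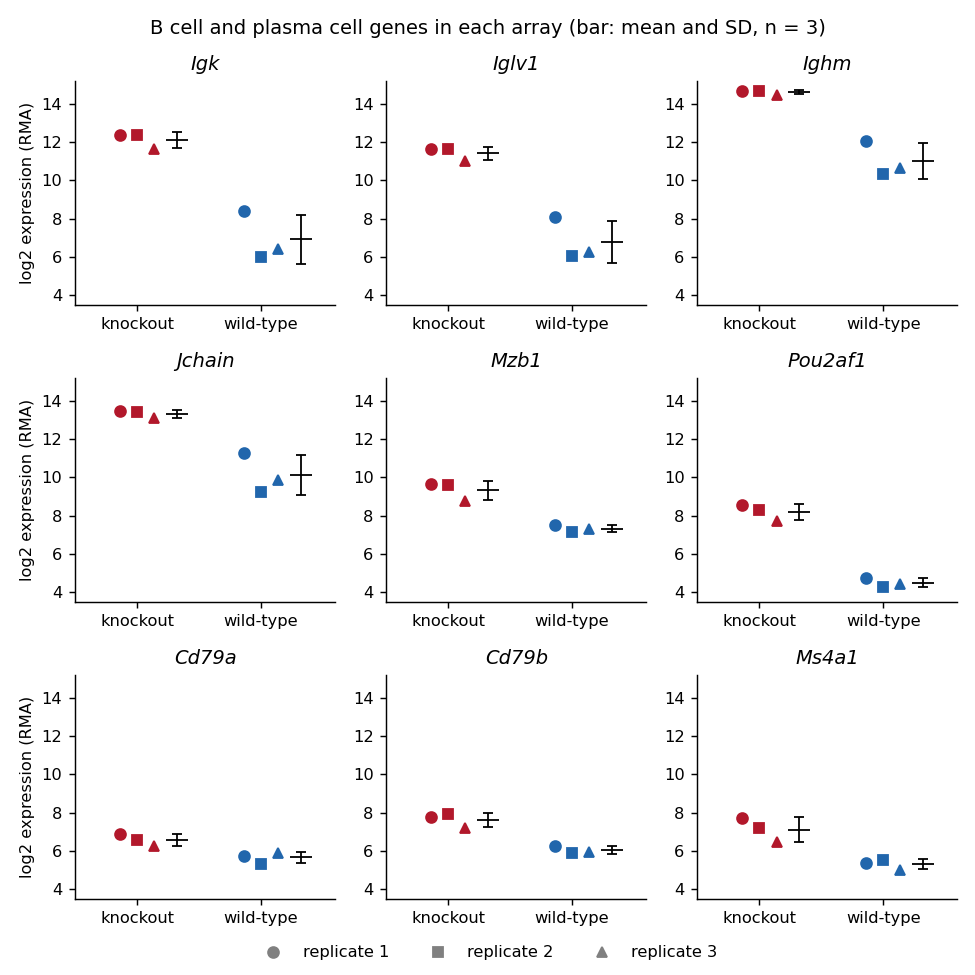
Log2 expression (RMA) of the 9 genes in 3 knockout arrays (red, left) and 3 wild-type arrays (blue, right), with the mean and SD (n = 3) as black bars and replicate numbers as symbols. Knockout values lie above all wild-type values in every panel, with wild-type 1 high for Igk, Iglv1, Ighm and Jchain and the smallest gap for Cd79a (0.34).

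Knockout values lay above all wild-type values for 9 of the 9 genes, against 25.7% of all genes, and 37.1% of all genes had every knockout value below. The genes were chosen for being higher in these arrays, so nothing is read from that count. The median log2 difference of the 9 genes was 3.19, against -0.11 over all genes. In order, the log2 differences ran from Igk (5.19), Iglv1 (4.66), Pou2af1 (3.71), Ighm (3.58) and Jchain (3.19) to Mzb1 (2.02), Ms4a1 (1.81), Cd79b (1.60) and Cd79a (0.91). Neighbours in this order lay within the sum of their SEs from Igk to Iglv1, from Pou2af1 through Ighm to Jchain, and from Mzb1 through Ms4a1 to Cd79b. With any 1 array left out the difference stayed between 4.72 and 5.92 for Igk, between 2.75 and 3.76 for Jchain and between 0.75 and 1.08 for Cd79a.

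Promoter sequences were at hand for 3 of the 9 genes and are shown because Pou2af1 protein acts through the octamer, a motif of immunoglobulin promoters, while Pou2af1, Jchain and Cd79a were all higher in the same arrays. They are RefSeq windows on GRCm38.p6, from 250 bases before to 50 after the start site, 5′ to 3′ on the gene's strand, with motif matches in capitals. Pou2af1 lies at chr9:51213440-51213739 on the plus strand, Jchain at chr5:88527848-88528147 on the minus strand and Cd79a at chr7:24897247-24897546 on the plus strand.
Pou2af1: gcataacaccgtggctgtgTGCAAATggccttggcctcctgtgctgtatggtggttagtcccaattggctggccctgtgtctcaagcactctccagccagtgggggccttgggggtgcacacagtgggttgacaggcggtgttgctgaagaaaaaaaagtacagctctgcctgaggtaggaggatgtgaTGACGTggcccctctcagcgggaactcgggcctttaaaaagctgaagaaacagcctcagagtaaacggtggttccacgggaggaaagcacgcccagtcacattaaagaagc
Jchain: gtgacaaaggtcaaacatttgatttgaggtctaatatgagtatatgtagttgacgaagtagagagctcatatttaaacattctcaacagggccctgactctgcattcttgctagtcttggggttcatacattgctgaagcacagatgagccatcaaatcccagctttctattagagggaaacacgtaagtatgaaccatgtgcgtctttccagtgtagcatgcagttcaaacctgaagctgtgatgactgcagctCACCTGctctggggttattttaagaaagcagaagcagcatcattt
Cd79a: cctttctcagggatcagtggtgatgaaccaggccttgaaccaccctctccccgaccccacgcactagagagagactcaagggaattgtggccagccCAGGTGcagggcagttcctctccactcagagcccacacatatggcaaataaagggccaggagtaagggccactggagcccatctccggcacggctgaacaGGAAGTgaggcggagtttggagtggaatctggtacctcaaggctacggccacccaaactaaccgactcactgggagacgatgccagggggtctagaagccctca

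Both strands were searched for 6 motifs, and positions are counted from the start site with upstream bases negative. The whole octamer ATGCAAAT was in none of these 3 windows and in 1.74% of the 32851 promoter windows of the table. Its last letters TGCAAAT, which lie inside the octamer, were in the Pou2af1 window at position -231 and in 4.02% of all windows. The cyclic AMP response element core TGACGT was in the Pou2af1 window at position -61 and in 7.51% of all. The E-box CAGGTG was in the Cd79a window at position -154 and, on the opposite strand, in the Jchain window at position 6, and 20.2% of all windows held it. The ETS motif GGAAGT was in the Cd79a window at position -54 and in 23.8% of all, and the EBF1 core CCCNNGGG was in none of the 3 and in 13.7% of all. A match describes the letters only.

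Several genes of the set were measured by more than 1 probe set, and these did not all read alike. Of the 25 probe sets, 19 had all knockout values above all wild-type values (24.8% of single-gene probe sets did), 1 had them all below (34.8% did) and 5 overlapped. Ighm had 11 probe sets, of which 7 were higher without overlap, with log2 differences from 0.88 to 3.95. Probe set 1427329_a_at read 13.99, 13.95 and 13.59 in knockout samples, against 10.83, 9.16 and 9.69 in wild-type samples. Probe set 1425385_a_at, also annotated to Ighm, ran the opposite way with 5.58, 5.10 and 5.05 in knockout samples, against 8.12, 7.28 and 7.81 in wild-type samples, a log2 difference of -2.50. The other 3 Ighm probe sets overlapped between groups. Of the 4 Igk probe sets 3 were higher without overlap, with log2 differences of 5.19, 1.40 and 0.97, and 1427757_at overlapped at 0.28. Of the 3 Iglv1 probe sets, 1 lay below the lower quartile of all 6 arrays and differed by 0.10. Ms4a1 had a second probe set with a log2 difference of 1.53. Immunoglobulin probe sets can bind related segments, so the individual segment behind each signal is uncertain.

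**Figure D2:**
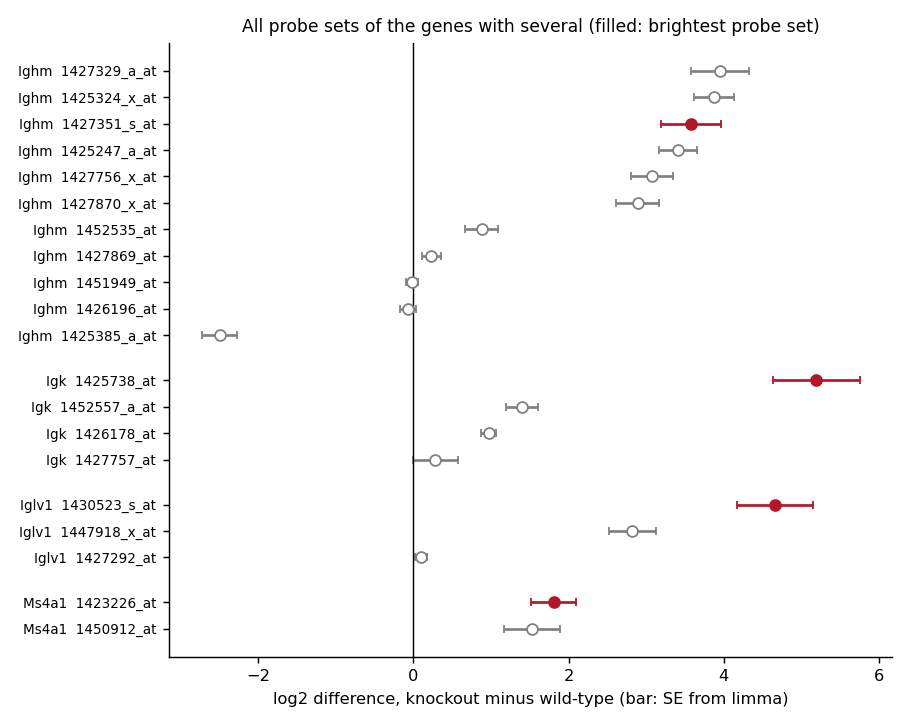
Log2 difference, knockout minus wild-type, of each probe set of the 4 genes that have more than 1 (points, with the SE from limma), with the probe set used for the gene filled in red. Ighm 1425385_a_at lies at -2.50, and 5 of the 25 probe sets of the 9 genes overlapped between groups.

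At the probe sets used, the antibody genes and the other genes varied differently within each group. In wild-type arrays Igk, Iglv1, Ighm and Jchain had ranges of 1.75 to 2.39 on the log2 scale, with wild-type 1 highest and wild-type 2 lowest for all 4. That order was not particular to them. Over all 9 genes wild-type 1 was highest for 7 and wild-type 2 lowest for 8, against 30.1% and 34.7% of all genes. The other 5 genes had wild-type ranges of 0.36 to 0.57. The median range of a gene over 3 wild-type arrays was 0.26. Among other Ighm probe sets higher without overlap, only 1427329_a_at had a wide wild-type range (1.67, with wild-type 1 highest). Probe sets 1427870_x_at, 1425247_a_at, 1427756_x_at, 1425324_x_at and 1452535_at had wild-type ranges of 0.40 to 0.49, and wild-type 3 was highest for 1425247_a_at. The wide control spread of Ighm therefore depended on the probe set. Jchain in wild-type 1 stood 1.70 above the mean of the other 2 controls. Pou2af1 stood 0.39 above it, Cd79b 0.34, Mzb1 0.30, and Ms4a1 and Cd79a 0.11. Without wild-type 1 the log2 differences were 5.92 for Igk, 5.30 for Iglv1, 4.12 for Ighm and 3.76 for Jchain.

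At the probe sets used, the knockout arrays varied less than the wild-type arrays for the antibody genes and Jchain. Most of their other probe sets that were higher without overlap had the opposite order. Only Ighm 1427329_a_at (knockout range 0.40, wild-type 1.67) and Igk 1452557_a_at (0.33 and 0.85) had the same order. The opposite held for Ighm 1427870_x_at (1.12 and 0.41), 1425247_a_at (0.99 and 0.49) and 1427756_x_at (1.03 and 0.49). It also held for Ighm 1425324_x_at (1.02 and 0.43) and 1452535_at (0.76 and 0.40). Iglv1 1447918_x_at (1.16 and 0.51) and Igk 1426178_at (0.32 and 0.10) had the opposite order too. The knockout values of Ighm lay near 14.8, the highest value in the table. Igk, Iglv1, Ighm and Jchain had knockout ranges of 0.19 to 0.75, and the other 5 genes 0.65 to 1.28, against a median of 0.16 over all genes. Knockout 3 was the lowest knockout array for 9 of the 9 genes and for 35.8% of all genes. It stood 1.00 below the mean of the other 2 knockout arrays for Ms4a1, 0.85 below it for Mzb1 and 0.74 below it for Igk. Of the other lists, the B cell, plasma cell and T cell means were also lowest in knockout 3 among knockout arrays (6.30, 8.11 and 5.93). The same held for the B cell recruitment and survival list (6.49) and the erythrocyte list (5.51). Macrophage markers had another order. The mean of 11 macrophage genes was 9.58, 10.02 and 10.17 in knockout 1, 2 and 3, so knockout 3 was the highest for them. That was not particular to macrophages. Knockout 3 was also highest for the antibody receptor (8.09), proximal tubule (11.03), distal nephron (10.43) and lymphatic and lymph node stroma (5.64) lists. The part of macrophages in these orders was not tested.

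**Figure D3:**
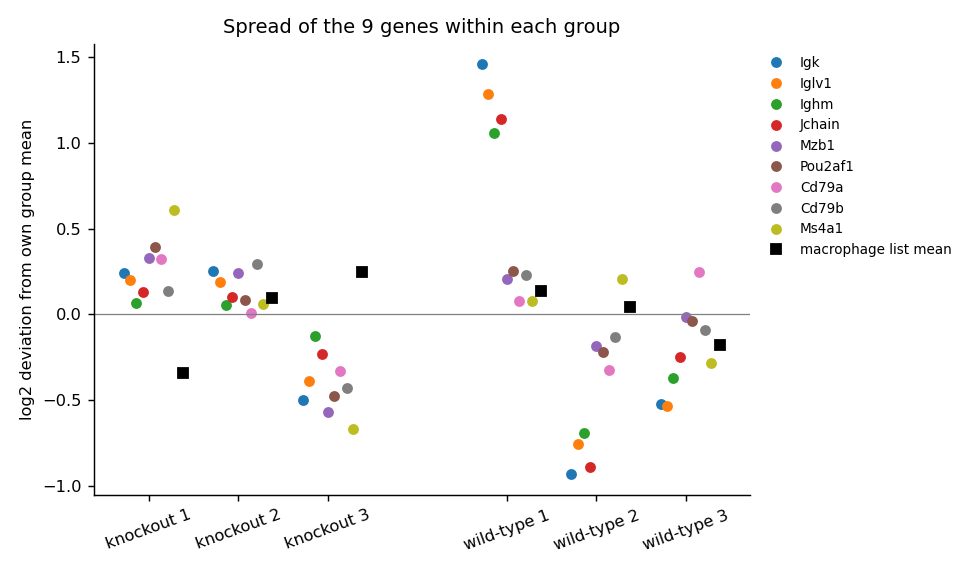
Log2 deviation of each of the 9 genes (coloured points) and of the mean of the macrophage list (black squares) from its own group mean, in 3 knockout and 3 wild-type arrays. Knockout 3 is lowest for all 9 genes but highest for the macrophage list, and wild-type 1 is high for Igk, Iglv1, Ighm and Jchain.

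Other immunoglobulin genes belong to the signal around which the set was chosen, so they too are described without a test. Of 18 with a single-gene probe set, 12 had all knockout values above all wild-type values (25.7% of all genes did), 1 had them all below (37.1% did) and 5 overlapped. Their median log2 difference was 0.85. Igha, the IgA heavy chain, read 12.76, 12.97 and 12.86 in knockout samples, against 12.20, 10.09 and 11.14 in wild-type samples. The groups did not overlap, but wild-type 1 came within 0.56 of the knockout range. The log2 difference was 1.72 with SE 0.45, its other 2 probe sets differed by 1.71 and 1.79, and the value ran from 1.19 to 2.25 with 1 array left out. Ighg3, the IgG3 heavy chain, read 9.34, 8.96 and 8.34 in knockout samples, against 7.02, 6.57 and 7.11 in wild-type samples. That is a log2 difference of 1.98 with SE 0.25, with no overlap, whereas its other 3 probe sets differed by 0.43, 0.18 and 0.00.

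Among 14 kappa variable genes, 9 were higher in knockout with no overlap. Igkv9-120 read 10.73, 10.48 and 10.26 in knockout samples, against 7.55, 5.16 and 5.94 in wild-type samples, a log2 difference of 4.28. Its other 2 probe sets differed by 1.19 and 0.14, and the mean of all 3 by 1.87. Igkv8-30 was 6.87-fold and Igkv15-103 6.32-fold higher in knockout. Igkv6-14, Igkv6-20, Igkv4-72, Igkv4-68, Igkv14-111 and Igkv5-39 were higher by log2 differences of 0.34 to 1.99. Igkv1-117, Igkv1-135, Igkv6-15, Igkv19-93 and Igk-V21 had log2 differences of -0.18 to 0.35. A second Igkv19-93 probe set was higher by 0.49 with no overlap. Igkv1-117 was the one whose knockout values lay below, by a gap of 0.00 after rounding. All 3 wild-type values of Igkv1-117, Igkv1-135 and Igk-V21, and 1 of Igkv6-15, lay below the lower quartile, where RMA compresses differences. The heavy chain variable gene Ighv14-2 was higher by 0.75, and by 0.52 to 0.98 with 1 array left out. Igll1, a surrogate light chain gene of B cell precursors, overlapped between groups (log2 difference 0.12).

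Of 21 other B cell genes measured, 7 were called higher and 2 lower, beside 21.6% and 27.7% of all genes, and their median log2 difference was 0.28. Bank1, a B cell scaffold protein, rose most, with 7.99, 7.33 and 7.03 in knockout samples, against 5.32, 5.34 and 5.09 in wild-type samples (log2 difference 2.20, SE 0.22, adjusted p = 0.000253). Cd72, a coreceptor of B cells that macrophages also carry, rose 3.81-fold (adjusted p = 0.000267), with knockout 3 the highest array. Blnk, the linker protein below the B cell receptor, which macrophages also use, rose 2.10-fold (adjusted p = 0.000582). Cd22, an inhibitory coreceptor of B cells, rose 1.60-fold (adjusted p = 0.0314), and its call ended in 4 of the 6 fits that left out an array. Cd37, Btk and Spib were the remaining higher genes. Without wild-type 1, and likewise without wild-type 2, 4 of the 21 were called higher.

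Pax5 and Ebf1, transcription factors of B cell identity, were not among them. Pax5, which holds cells in the B cell programme and is shut off in plasma cells, read 5.76, 5.78 and 5.44 in knockout samples, against 5.74, 6.06 and 6.26 in wild-type samples. The groups overlapped (log2 difference -0.36, SE 0.15, adjusted p = 0.0849). Pax5 was called lower with the mean of its probe sets (adjusted p = 0.0367), with arrays centred on their median gene (0.0468) and without wild-type 1 (0.027), and its other probe set was called lower (-0.33, adjusted p = 0.0496). Ebf1, which acts before Pax5 and is also made by stromal cells, had a log2 difference of -0.42 (adjusted p = 0.11), and 1 of its other 4 probe sets was called lower (-0.31, adjusted p = 0.0176). Bcl11a, a lymphoid transcription factor, was 1.35-fold lower (adjusted p = 0.0172), although 1 of its other probe sets was called the opposite way, and Vpreb3, of B cell precursors, 1.26-fold lower (adjusted p = 0.0207). Without knockout 3 neither was called, and without knockout 1, as with a replicate block, 1 was called. Cr2, Fcer2a and Cxcr5, of mature B cells, did not pass, with log2 differences of -0.07, 0.19 and 0.30.

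Of 16 plasma cell genes measured, 9 were called higher and 1 lower, beside 21.6% and 27.7% of all genes, with a median log2 difference of 0.39. Sdc1, the plasma cell surface proteoglycan syndecan-1, which epithelia also make, read 9.28, 9.56 and 9.60 in knockout samples, against 7.61, 7.52 and 7.47 in wild-type samples (log2 difference 1.94, SE 0.11, adjusted p = 2.53e-05). At the probe sets used, knockout 3 was the lowest knockout array for all 9 genes of the set. For Sdc1 it was the highest, but only by 9.60 against 9.56 in knockout 2. The other 3 Sdc1 probe sets were also called higher, with log2 differences of 2.43, 0.77 and 0.97. Knockout 3 was the highest knockout array where the difference was 2.43 or 0.77. It was the lowest where the difference was 0.97 (7.60, 7.71 and 7.39), so the order for Sdc1 depended on the probe set. Tnfrsf13b, the receptor TACI for the survival factors BAFF and APRIL, rose 2.82-fold (adjusted p = 0.000181). Irf4, a transcription factor needed for plasma cells, read 6.96, 6.75 and 6.08 in knockout samples, against 5.39, 4.90 and 5.51 in wild-type samples (2.52-fold, adjusted p = 0.00379). Its second probe set differed by -0.09. Xbp1, the factor that expands the secretory apparatus, rose 1.32-fold (adjusted p = 0.0138), and its call ended without knockout 1 (adjusted p = 0.0524) and without knockout 2 (adjusted p = 0.0502).

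Further secretory genes in that list rose as well. Fkbp11, Txndc5, Sec11c and Pdia4, of protein folding and signal peptide cleavage, rose by log2 differences of 0.36 to 0.70, and these genes are also used by other secreting cells. Another Fkbp11 probe set was called lower, and Sec11c lost its call in 4 of the 6 fits that left out an array. Prdm1, the repressor BLIMP-1 that drives plasma cell formation, did not pass (log2 difference 0.28, SE 0.14, adjusted p = 0.13). Tnfrsf17, the receptor BCMA of plasma cells, did not pass either (log2 difference 0.16, SE 0.11, adjusted p = 0.261), with 5.94, 6.21 and 5.85 in knockout samples, against 5.92, 5.74 and 5.85 in wild-type samples. Eaf2, an elongation factor partner, was 1.91-fold lower (adjusted p = 0.000227). With the arrays quantile normalised again 2 plasma cell genes were lower.

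Of 16 measured genes that draw or sustain B cells, 7 were called higher and 4 lower, beside 21.6% and 27.7% of all genes, so the lower share was near that of all genes. The median log2 difference was 0.32. Vcam1, the endothelial and stromal adhesion molecule for integrin alpha 4, rose 9.26-fold (SE 0.15 on the log2 scale, adjusted p = 1.56e-05), and Itga4, that integrin, rose 1.99-fold. Ltb, lymphotoxin beta of lymphocytes, rose 3.56-fold (adjusted p = 7.72e-05). Tnfsf13b, the B cell survival factor BAFF, read 7.21, 7.54 and 7.61 in knockout samples, against 6.15, 6.17 and 6.26 in wild-type samples (2.39-fold, adjusted p = 0.000172). Its other 2 probe sets were not called. Cxcl13, the chemokine of B cell follicles, read 8.15, 8.59 and 8.14 in knockout samples, against 6.92, 7.61 and 7.07 in wild-type samples (2.14-fold, adjusted p = 0.00355). Its second probe set differed by 3.59 on the log2 scale, with knockout values of 9.11, 9.43 and 9.12, against 4.81, 7.23 and 4.86 in wild-type samples.

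Cxcl12, the chemokine that holds plasma cells in bone marrow, fell 2.29-fold (adjusted p = 0.000709), whereas its receptor gene Cxcr4 rose 2.21-fold (adjusted p = 0.000479). Il7, a lymphocyte growth factor, rose 2.15-fold. Ccl28, a mucosal chemokine for IgA plasma cells, and Ccr10, its receptor, were lower by log2 differences of -0.67 and -0.53 (adjusted p = 0.00586 and 0.0153). Il21, the helper cytokine of plasma cell formation, was called lower by -0.28, with all wild-type values below the lower quartile, and its call ended without any 1 of the knockout arrays. Il6, Il5, Lta, Cd40lg and Ccr7 did not pass.

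Of 9 antibody receptor genes, 4 were called higher and 3 lower, beside 21.6% and 27.7% of all genes, with a median log2 difference of -0.18. The Fc receptors Fcgr3 and Fcgr1 rose 4.23-fold and 3.56-fold, and their shared signalling chain Fcer1g 2.19-fold (adjusted p = 0.000296, 0.000939 and 0.00205). These are genes of macrophages and other myeloid cells. Pigr, the polymeric immunoglobulin receptor of epithelia, read 10.72, 10.77 and 11.10 in knockout samples, against 11.14, 10.25 and 12.21 in wild-type samples. It did not pass (log2 difference -0.34, SE 0.42, adjusted p = 0.519), and its wild-type values spanned the knockout range. Fcgrt, the neonatal Fc receptor that salvages IgG, fell 1.89-fold (adjusted p = 0.000829). Fcamr, a receptor for IgM and IgA, fell 5.89-fold (SE 0.60 on the log2 scale, adjusted p = 0.0105), with 4.84, 4.83 and 4.70 in knockout samples, against 8.29, 5.72 and 8.04 in wild-type samples. Wild-type 2 was the low control for both Pigr and Fcamr.

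Markers of other blood cells moved beside these genes, and their part in the results was not tested. The counts called here stand beside 21.6% of all genes called higher and 27.7% called lower. Leukocyte genes rose for 8 of 8, with Laptm5 at 5.08-fold (adjusted p = 0.000189) and Ptprc, which encodes CD45, at 3.73-fold (adjusted p = 3.69e-05). Other Laptm5 probe sets differed by 1.31, 0.10, -0.08 and -0.41, of which only the first was called. The other Ptprc probe set differed by 0.35 and was not called. Macrophage genes rose for 10 of 11, with a median log2 difference of 1.98 and Cd14, a coreceptor for bacterial lipopolysaccharide, at 7.86-fold (adjusted p = 3.26e-05). Of 11 T cell genes, 4 rose and 4 fell, with a median of -0.07, and without knockout 3 2 fell. Cd3d rose 2.00-fold (adjusted p = 0.0104) and Zap70 fell 1.45-fold (adjusted p = 0.0106). Other Zap70 probe sets differed by -0.11 and -0.01 and were not called. Of 7 granulocyte and mast cell genes 3 fell and 0 rose by limma (3 had an unadjusted p under 0.05), and without knockout 1, as without knockout 3, 0 fell. Of 3 erythrocyte genes 3 fell, with Alas2 3.49-fold and Slc4a1, also an exchanger of intercalated cells, 4.32-fold lower. The mean of the 3 erythrocyte genes was 5.51 to 5.70 in knockout and 6.84 to 7.32 in wild-type arrays. Hba-a1, the third, had all 3 wild-type values below the lower quartile. Its call ended without knockout 2 and without knockout 3. None of 4 markers of lymphatic vessels and lymph node stroma was called by limma (2 had an unadjusted p under 0.05), although 1 was called lower without knockout 3 and 2 without wild-type 2, and Madcam1 and Glycam1 had log2 differences of -0.30 and -0.29.

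**Figure D4:**
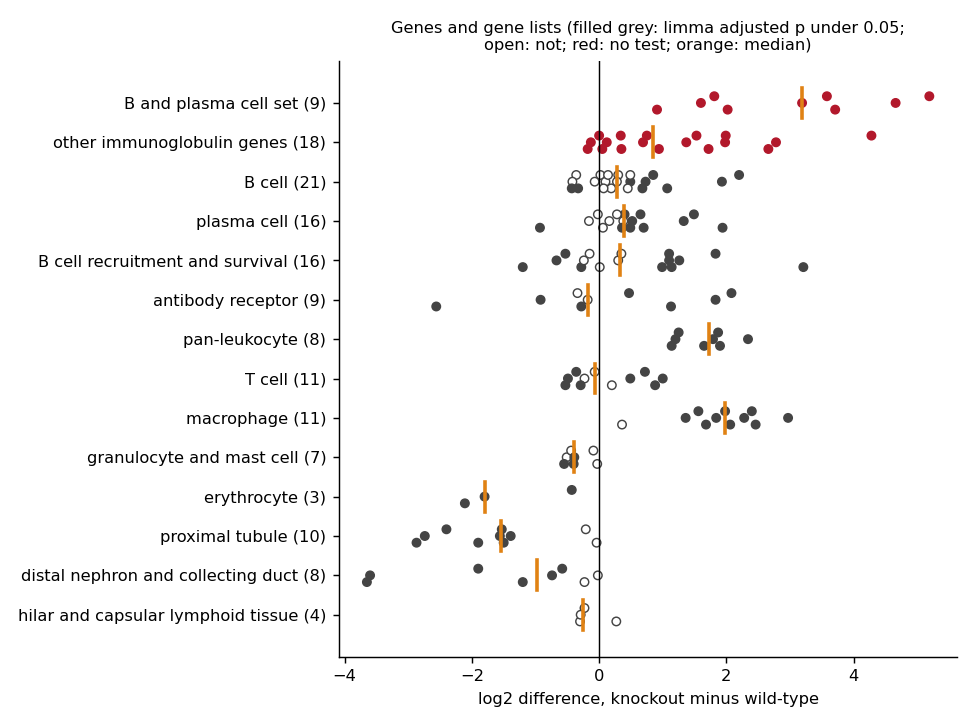
Log2 differences, knockout minus wild-type, of the 9 genes and 18 other immunoglobulin genes (red, no test) and of 12 gene lists, with the number measured in brackets; filled grey points passed limma at an adjusted p under 0.05 and orange bars are medians. The median is 3.19 for the 9 genes, 0.28 for other B cell genes, 0.39 for plasma cell genes, 1.98 for macrophage genes and -0.07 for T cell genes.

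Genes whose levels over the 6 arrays lay closest to Igk and Cd79a were found by likeness. This was the Pearson correlation of log2 values, which is mostly set by the contrast between the groups, and 1015 genes outside the immunoglobulins had a correlation over 0.95 with Igk. The closest were Rpl22l1, Cyp2j6, Fbxo6, Zfand4 and Eif4a1 (0.9961 to 0.9977), with log2 differences of 0.49 to 1.16. For Cd79a 139 genes lay over 0.95, and the closest were Ppcdc, Taf1a, Cd5, Irf4 and Btla (0.9915 to 0.9947). Cd5 is a surface protein of T cells and some B cells, and Btla an inhibitory receptor of B and T cells. Btla read 7.40, 7.13 and 6.62 in knockout samples, against 5.76, 5.31 and 5.89 in wild-type samples. It was picked for its likeness to Cd79a, so nothing is read from the array order they share.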

How the data were processed

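The table deposited by the authors holds log2 values of 45101 probe sets in 6 arrays, made with RMA, per the submitters' processing notes. Their range (2.9 to 14.8) shows the log2 scale. The sources used here give no RMA version or software. RMA gives no detection call and compresses dim genes, and 3 arrays per group limit the precision. Gene names came from the platform annotation, which can be old, with symbols updated by Entrez identifier from RefSeq (GRCm38.p6) for 34741 of 34945 single-gene probe sets. The 932 that several genes share were left out of the fit.

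Knockout and wild-type were compared by limma 3.58.1 in R 4.3.3 (lmFit, then eBayes), 1 probe set per gene, with Benjamini-Hochberg adjustment over 18193 genes and a threshold of 0.05. SE is limma's moderated standard error. The 9 genes, the gene lists and the rules were chosen with earlier results of these data known. Named were the 9 genes, the other immunoglobulin genes, defining B and plasma cell genes, and from each list the 3 called genes that changed most and the strongest in the other direction; genes so chosen from the lists of other cell types are given mostly as counts. Others (Btk, Ebf1, Cr2, Fcer2a, Cxcr5, Vpreb3, Cd37, Spib, Cxcr4, Itga4, Il7, Il21, Il6, Il5, Lta, Cd40lg, Ccr7, Ccl28, Ccr10, Fkbp11, Txndc5, Sec11c, Pdia4, Fcgrt, Fcer1g) were chosen after their values were seen. In simulated data of 18193 genes, 50 were changed by 0.5, 100 by 1 and 50 by 2 on the log2 scale. The fit recovered 44%, 80% and 96% of them, with 5 false calls among 155. The simulation gave both groups the same spread and changed far fewer genes than the 49.2% called here. Its rates may therefore not hold for this comparison. Alternatives were another summary of probe sets, a signal filter, another prior, another scaling, array weights, a replicate block and each array left out. Python 3.11.15 and matplotlib 3.10.9 made tables and plots.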

Additional observations from a re-analysis of the deposited data

Results flagged for a closer look

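Probe sets that several immunoglobulin genes share were outside the comparisons above. Of 13, 9 had all knockout values above all wild-type values (24.8% of single-gene probe sets did), 0 had them all below and 4 overlapped. They belong to the signal around which the 9 genes were chosen and are given without a test. The lambda probe set differed by 5.13 on the log2 scale, with 11.16, 11.17 and 10.61 in knockout samples, against 6.92, 5.26 and 5.36 in wild-type samples. The 7 kappa probe sets without overlap had log2 differences of 2.33, 1.98, 1.78, 1.68, 1.53, 1.44 and 1.40, and the heavy chain probe set without overlap 0.55. The gene behind each is not settled by the annotation. Groups of 3 arrays were not tested for outlying samples.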

How the results depend on the processing

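All 9 gene differences kept their sign under every alternative that could give a value, and with 1 array left out their ranges were 4.72 to 5.92 (Igk), 4.28 to 5.30 (Iglv1), 3.24 to 4.12 (Ighm), 2.75 to 3.76 (Jchain), 1.86 to 2.31 (Mzb1), 3.52 to 3.95 (Pou2af1), 0.75 to 1.08 (Cd79a), 1.45 to 1.81 (Cd79b) and 1.51 to 2.15 (Ms4a1). With the mean of all probe sets Igk fell to 1.96, Iglv1 to 2.52 and Ighm to 1.76, since their dim or opposite probe sets then count. Over all genes 3928 were higher and 5031 lower. Testing every probe set gave 7203 higher and 8683 lower, genes at or above the median signal 2944 higher and 2334 lower, and 1 array left out 3113 to 3860 higher and 3160 to 4810 lower. At or above the median signal 1 B cell gene was left, with 1 higher and 0 lower, against 5 higher of 9 plasma cell genes, 2 higher and 2 lower of 4 recruitment and survival genes, and 2 higher and 1 lower of 5 antibody receptor genes. With 1 array left out the counts were 4 to 10 higher and 0 to 3 lower (B cell), 7 to 10 higher and 1 lower (plasma cell), 7 higher and 3 to 5 lower (recruitment and survival), and 3 to 4 higher and 2 to 3 lower (antibody receptor). Quantile normalisation gave 2 lower plasma cell genes. Same-numbered samples did not deviate together (correlations -0.10, -0.13 and -0.13), and a replicate block gave 3510 higher and 3930 lower genes, with 1 lower B cell gene. Of 873 comparisons for 65 named genes, 826 kept their call or lack of one, 36 lost the call, 11 gained it and 0 were called the opposite way. Uncalled genes could change sign and still count as kept, such as Pigr (-0.34, and 0.17 without wild-type 3). The 65 include the other immunoglobulin genes, which belong to the signal around which the set was chosen, so the tally is only a description. RMA values carry no measure of signal over background, so dim genes are the least certain.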
